A study of Populus trichocarpa with 24 samples.

Results

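Primary root and shoot tip are the organs of Populus trichocarpa (black cottonwood) in which primary growth takes place, the root extending downward from its tip and the shoot upward from its apex. They were compared through the 3 libraries of each organ, 6 of the 24 RNA sequencing libraries of a series that also holds leaf, phloem, differentiating stem xylem and laser-captured wood cells. Shoot tips, made up of the uppermost internodes, were taken from 6-month-old trees kept in soil in a greenhouse. Primary roots came from young seedlings that had rooted in water, although the age label of the root samples is also 6 months. Organ, plant age and rooting medium therefore changed together and cannot be told apart. No genotype, treatment or pooling is given for either group, and nothing says that replicates came from separate plants, so p-values cover only the variation among the libraries at hand.

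A shoot apex carries a meristem that forms stem, leaves and buds, and class I KNOX homeobox genes are known for keeping such meristem cells undifferentiated. A root apex forms no leaves; behind it the root takes up water and ions, and its inner and outer layers are sealed with lignin and suberin. Both apices grow by primary walls, whose cellulose is made by one set of cellulose synthases, while another set, together with lignin and the NAC and MYB regulators that switch them on, builds the secondary walls of wood.

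Loci are known here only by identifier. The deposited table does not pair identifiers with names, and the reference table used here matched 0 of 41335 identifiers. Tissue markers such as photosystem or Casparian strip genes could therefore not be looked up. Only the KNOX list bears on the organ labels, and it does not settle them. Of its loci, 2 were higher in shoot tip and 1 in root, and which of them are class I was not checked. Gene groups are described through 6 lists, 58 identifiers in all. Their membership was recalled from published poplar nomenclature and could not be checked, so single members are given no name and some may be misplaced.

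Root libraries held 5689642, 6182471 and 11373245 counts in replicates 1 to 3, and shoot tip libraries 17777537, 9405714 and 10445992. Numbers of loci with at least 1 count were alike all the same, 32381 to 33884 in root and 32262 to 33546 in shoot tip. The biological coefficient of variation (the spread between replicates beyond counting error) was 19% among the root libraries and 29.2% among the shoot tips. Without root replicate 3 it was 8.72%, and without shoot tip replicate 1 it was 17.0%, so these libraries stood apart in their groups. Among loci with a mean of at least 10 CPM (normalised read counts, scaled to the same library size), 391 of 14650 in root replicate 3 were at least 2-fold above both other roots. In shoot tip replicate 1, 480 of 14305 were at least 2-fold above both other shoot tips and 286 at least 2-fold below.

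The comparison asks which transcripts separate the root from the shoot apex. In bulk tissue, fewer cells of a type and less RNA per cell cannot be told apart. Of 31308 loci tested, 8285 were higher in root (26.5%) and 7990 were higher in shoot tip (25.5%), 52.0% together. A call needed a log2 fold of at least 1 in size and, by edgeR's quasi-likelihood test, p below 0.05 after Benjamini-Hochberg adjustment. Without root replicate 3 the numbers were 7721 and 8218, and without shoot tip replicate 1 they were 8842 and 8100. The balance between directions rests on the scaling of libraries. On library totals without a scaling factor, 10275 were higher in root and 6421 in shoot tip, the median log2 fold of all loci moving from 0.03 to 0.37.

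**Figure D1:**
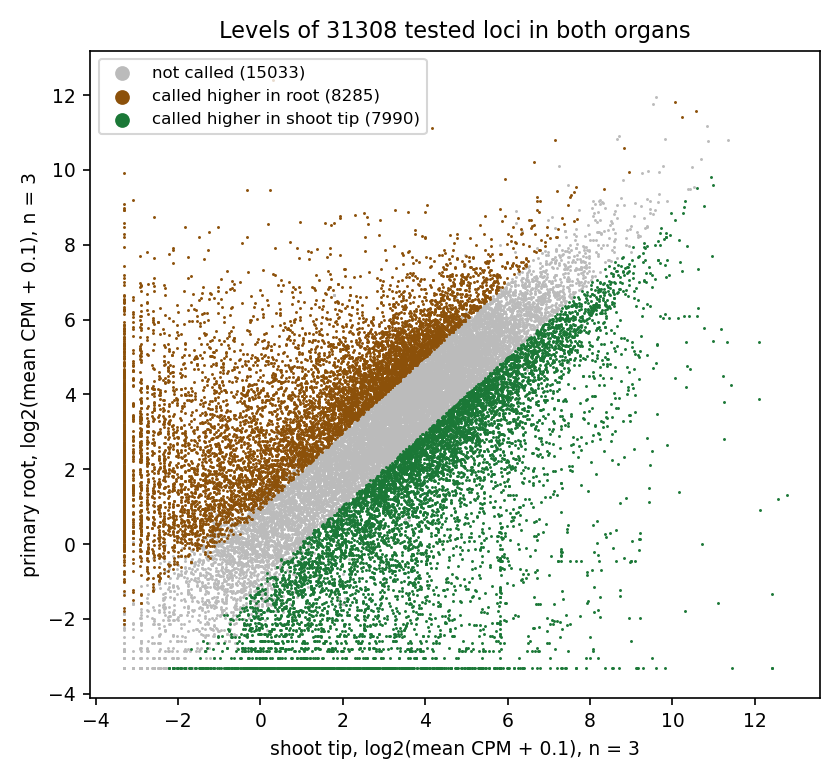
Each point is 1 of the 31308 tested loci, placed by log2(mean CPM + 0.1) in shoot tip (horizontal axis) and primary root (vertical axis), 3 libraries each, and coloured by its call. Loci called higher in root (8285) and in shoot tip (7990) lie on both sides of the grey diagonal, and points along the left and lower edges had no count in the other organ.

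Called loci differed by similar sizes in both directions. The median log2 fold was 2.28 among loci higher in root and -2.20 among those higher in shoot tip. At least 64-fold differences were reached by 1251 loci higher in root (15.1% of them) and 1007 higher in shoot tip (12.6%). The directions differed more by abundance, read from CPM without a correction for transcript length. Among the 1417 loci with a mean of at least 100 CPM over the 6 libraries, 219 were higher in root (15.5%) and 688 in shoot tip (48.6%). Among the 12471 loci from 1 to 10 CPM it was 29.7% against 25.9%.

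The counts of each library divided likewise. Loci called higher in shoot tip took 53.7%, 57.2% and 56.4% of the counts in shoot tip replicates 1 to 3, and 12.5% to 13.5% in the roots. Loci called higher in root took 37.8%, 38.5% and 38.3% in the 3 roots and 5.56% to 7.73% in the shoot tips. These loci were chosen by the same contrast, so the shares only describe how much of each library's counts they took. They are not shares of RNA, since neither transcript length nor reads that may be counted at several loci were corrected for. The 100 most abundant loci of a library held 12.7 ± 1.29% of counts in root (SD, n = 3) and 17.2 ± 0.937% in shoot tip, and the most abundant 10 held 4.27 ± 0.825% and 5.33 ± 1.17%.

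Some transcripts were found in 1 organ alone. A total of 1053 loci had counts in all 3 roots and none in the shoot tips, and 859 had counts in all 3 shoot tips and none in the roots, against 28255 with counts in all 6 libraries. Since depth differed between libraries, all 6 were also thinned to 5689642 counts, which gave 1398 and 771 loci. Without root replicate 3 the order was reversed, with 1100 found in root alone and 1225 in shoot tip alone. That library is the deepest root library, and thinning was not repeated without it. Whether its absence acts through depth was not tested. Most were rare, the median summed count being 44 for the root loci and 49 for the shoot tip loci, but 64 and 84 of them reached 1000 counts. A count of 0 shows only that a transcript was not detected at this depth.

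The other tissues set these groups apart, but no other group was labelled as root, so the contrast depends on which tissues were sampled. Of the 1053 loci found in root alone, 371 had no count in leaf, phloem or xylem tissue either, while of the 859 found in shoot tip alone only 33 did. Leaf lacked 612 of the root loci and 78 of the shoot tip loci. By level, 6223 of the 8285 loci higher in root (75.1%) had their highest mean of the 5 tissues in root, followed by xylem with 13.5%. Of the 7990 loci higher in shoot tip, 29.5% were highest in shoot tip itself, 36.6% in leaf, 23.5% in phloem and 10.5% in xylem. Over all tested loci, root was highest for 27.3% and shoot tip for 11.2%. A called locus cannot be highest in the organ it was compared with, so these shares depend in part on the call.

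**Figure D2:**
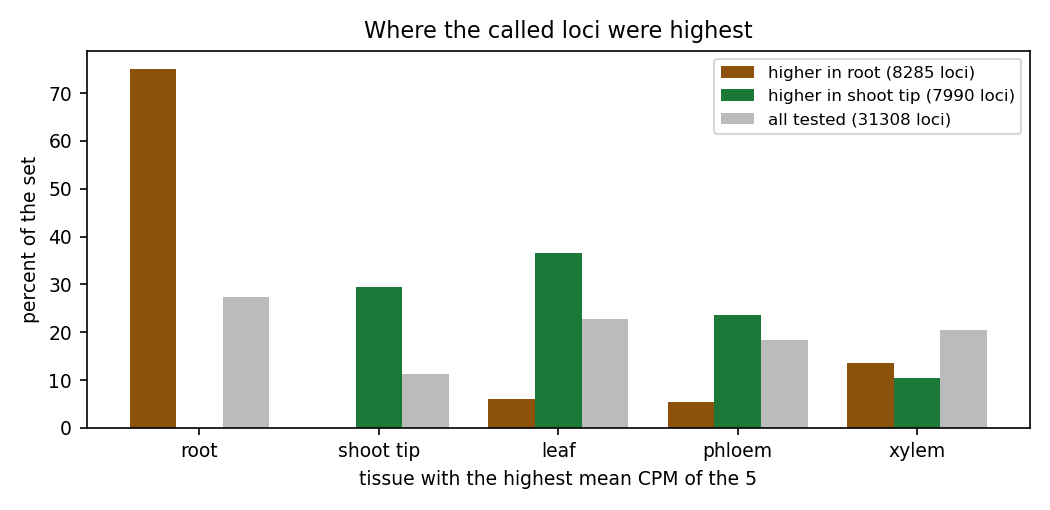
Bars give the percent of loci (vertical axis) whose highest mean CPM of the 5 tissues (horizontal axis) lay in the tissue named, for loci called higher in root, loci called higher in shoot tip and all tested loci. Loci higher in root were mostly highest in root (75.1%), while loci higher in shoot tip were spread over leaf (36.6%), shoot tip (29.5%), phloem (23.5%) and xylem (10.5%).

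In 4988 of the loci higher in root (60.2%), every root library lay above all 12 libraries of the other tissues, a pattern shown by 18.1% of all tested loci. The same held for shoot tip in 903 of its 7990 loci (11.3%), against 3.33% of all tested loci. The 12 libraries include those of the organ the call compared, so part of each excess follows from the call itself. Among loci higher in shoot tip, leaf was at or above the shoot tip mean in 42.2%, phloem in 31.1% and xylem in 17.1%. Among loci higher in root, leaf was at or above the root mean in 7.10%, phloem in 7.24% and xylem in 15%.

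The largest differences were transcripts abundant in 1 organ and without a count in the other. Loci that were called, did not overlap and averaged at least 50 CPM where they were higher numbered 1360 for root and 2059 for shoot tip. Libraries do not overlap in 38.1% of all tested loci with root higher and in 36.0% with shoot tip higher. Of these abundant loci, 169 and 181 stayed below 1 CPM in every library of the other organ.

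Potri.006G057900 had 1161, 1084 and 633.5 CPM in root replicates 1 to 3 and no count in the shoot tips, the lowest value being that of root replicate 3. It was at least 13029-fold higher in root, taking 3 counts over the shoot tip group as the floor, which covers counting error only (edgeR adjusted p = 1.2e-07). Phloem, xylem and all captured cells had no count of this locus either, and leaf averaged 0.0154 CPM. Potri.016G034800 had 647.5, 571.8 and 401.6 CPM in root and no count in shoot tip, at least 7337-fold higher on the same floor (adjusted p = 9.1e-09). Unlike the first locus it was present in xylem, at 3.33 ± 1.14 CPM (SD, n = 3). Among captured cells it had 1047 counts in the fiber captures, 3 in the vessel captures and 1113 in the captures of mixed cells.

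In the opposite direction Potri.013G080500 had 5168, 7661 and 3658 CPM in shoot tip replicates 1 to 3 and no count in root, and was at least 57219-fold higher in shoot tip (edgeR adjusted p = 4.2e-08). Leaf held 2130 ± 1608 CPM of it (SD, n = 3), against 8.73 ± 3.07 in phloem and 6.06 ± 1.79 in xylem. Among captured cells it had 2067 counts in the vessel captures, 0 in the fiber captures and 69 in the captures of mixed cells. Potri.013G082800 had 5178, 7657 and 3636 CPM in shoot tip, no count in root and a bound of 57166-fold. Its summed shoot tip count of 219078 is nearly the 219141 of Potri.013G080500, so the 2 loci are not independent measurements.

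Such near-equal counts were looked for throughout. Of 26161 loci with at least 500 counts over the 24 libraries, 576 had a partner whose counts differed by at most 5% in sum, in 205 sets of up to 24 loci. Of the 956 such pairs, 888 joined loci of the same chromosome at most 100 loci apart in the table. Among the 549 of these loci that were tested, 92 were called higher in root and 281 in shoot tip, 67.9% in all against 52.0% of all loci. Leaving all of them out gave 8135 loci higher in root and 7776 higher in shoot tip. The sources used here do not say how reads with several matches were counted.

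Called loci also lay side by side. Stretches of at least 5 consecutive loci called the same way were taken in identifier order, passing over untested loci. Of 7792 placed loci higher in root, 853 (10.9%) stood in 127 such stretches. Of 7746 higher in shoot tip, 769 (9.93%) stood in 101. Of the loci with at least 64-fold differences placed on chromosomes, 424 of 1155 higher in root (36.7%) were next to another of their kind. For shoot tip it was 369 of 949 (38.9%). Without the loci of near-equal counts these were 385 of 1108 and 264 of 839. Over all 31308 tested loci 26.5% and 25.5% were called in these directions at any fold that passed. At least 64-fold differences were much rarer, at 1251 and 1007 loci, so the called shares are no like measure for their neighbours. What random placement of the calls would give was not tested.

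Stretches of consecutive loci that each differed at least 64-fold held at most 11 loci in either direction. Low sums in the lower organ follow from that choice. One of 11 neighbours on chromosome 18 had counts in the shoot and none in the root. It summed to 1227, 1131 and 873.8 CPM in the shoot tips, and all 3 roots had 0 for every one of its loci. Leaf held 2558 ± 1761 CPM of the stretch (SD, n = 3), phloem 4.70 ± 1.21 and xylem 11.3 ± 5.54. An equally long stretch on chromosome 11 showed the reverse, with 872, 748.3 and 1761 CPM in the roots and 1.62 to 3.86 CPM in the shoot tips, root replicate 3 being the highest. Its sum in leaf, phloem and xylem was 0.312, 1.0 and 0.274 CPM. None of the loci in these 11-locus stretches had a partner of near-equal counts.

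The longest stretch lay on chromosome 19, where 52 consecutive loci were all called higher in shoot tip, by log2 folds of 1.40 to 13.41 in size. Together they summed to 11086, 10881 and 7391 CPM in the shoot tips and 878.8, 792.7 and 821.7 CPM in the roots. Each sum adds the counts of all 52 loci, and whether the same reads were counted at several of them was not tested, so a read may enter a sum more than once. Many of these loci shared their counts. In shoot tip replicates 1 and 3 the median counts were 3279 and 1110, and in each of these libraries 14 of the 52 loci lay within 5% of the median. In replicate 2 none did, but there the most frequent count, 1998 at 3 loci, lay outside that range around the median of 1859. In root replicates 1, 2 and 3 the most frequent count was 8, 4 and 6, found at 14, 18 and 16 of the 52 loci, and 27 of the 52 had a partner of near-equal counts. The stretch is therefore not 52 independent measurements. Without loci of near-equal counts the longest stretch higher in shoot tip held 25 loci.

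**Figure D3:**
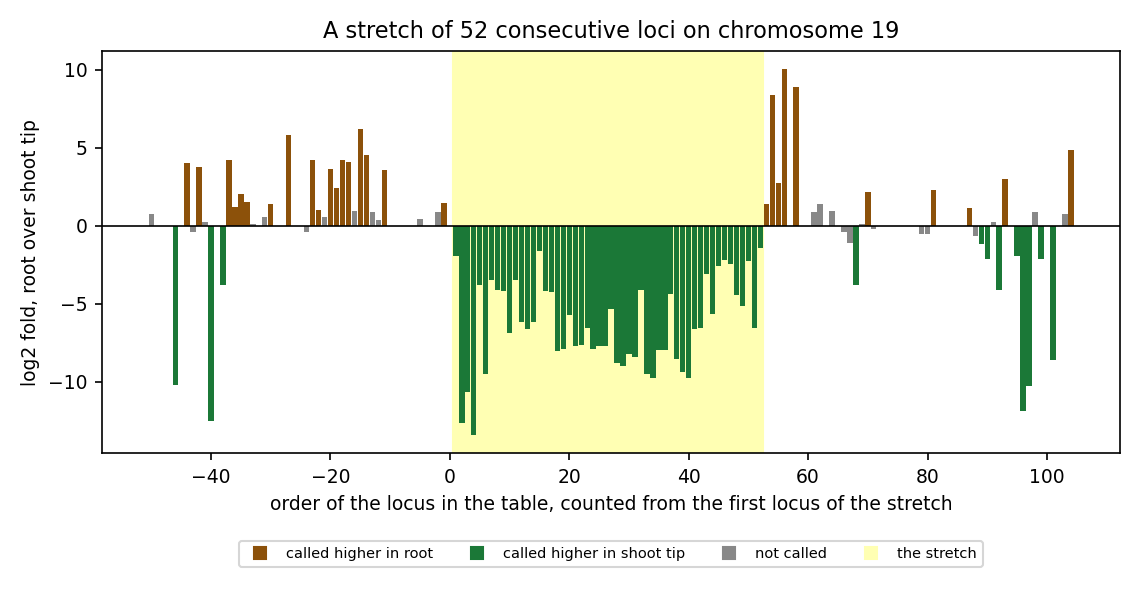
Bars give the log2 fold of root over shoot tip (vertical axis) for tested loci in the order of the table (horizontal axis, counted from the first locus of the stretch), coloured by call. Within the shaded stretch all 52 loci are called higher in shoot tip, many at similar folds, and 27 of them share near-equal counts with another locus.

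Calls were otherwise spread over the genome. On the 19 chromosomes, as named in the identifiers, the share called higher in root ran from 22.3% on chromosome 13 to 29.7% on chromosome 7. The share higher in shoot tip ran from 23.1% on chromosomes 3 and 16 to 33.4% on chromosome 13 and 33.2% on chromosome 19. Chromosome 13 holds the largest set of near-equal counts, with 24 loci, and chromosome 19 the stretch of 52 loci. The shares were not recomputed without such loci. The 1202 tested loci on unplaced scaffolds leaned towards root, with 41.0% higher in root and 20.3% higher in shoot tip.

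KNOX homeobox genes, of which the list holds 3 loci, all differed between the organs. Their median log2 fold was -1.93, beside 0.03 over all tested loci, and 2 were higher in shoot tip and 1 in root, where 25.5% and 26.5% of all loci were called. The strongest had 33.4, 33.0 and 32.7 CPM in shoot tip replicates 1 to 3 and 0.129, 0.116 and 0.134 CPM in root, the latter resting on 4 counts over 3 libraries. Shoot tips thus lay close together and far from the roots, with a log2 fold of -7.91 ± 0.37 (SE; edgeR adjusted p = 2.7e-09). It was also nearly absent from leaf, at 0.373 ± 0.193 CPM (SD, n = 3), but higher in phloem (144.5 ± 37.7) and xylem (72.4 ± 15.6) than in the shoot tip.

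Another locus of the list had 168.6, 161.0 and 199.3 CPM in shoot tip and 43.7, 48.9 and 46.5 CPM in root. It was expressed in both organs without overlap, at a log2 fold of -1.93 ± 0.21 (edgeR adjusted p = 2.2e-06). Leaf had 0.833 ± 0.236 CPM of it (SD, n = 3) and phloem 346.0 ± 70.8. The last locus ran the other way, with 52.7, 50.6 and 49.1 CPM in root and 5.55, 5.86 and 5.55 CPM in shoot tip, a log2 fold of 3.17 ± 0.21 (adjusted p = 2.5e-08). Leaf, at 46.3 ± 12.7 CPM, was near the root level, and xylem, at 189.1 ± 14.5 CPM, was the highest of the 5 tissues.

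**Figure D4:**
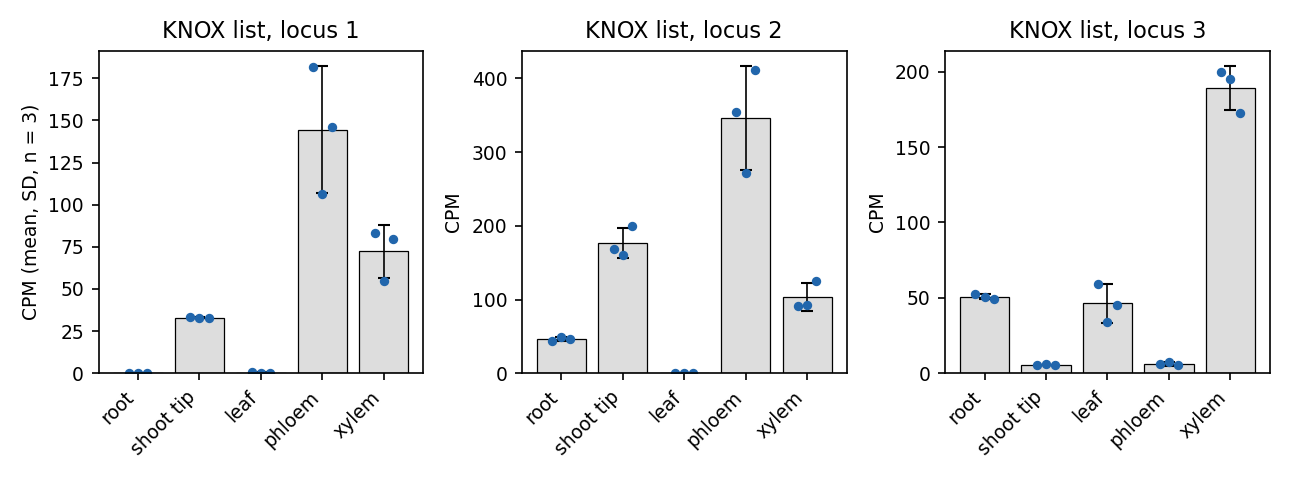
CPM (vertical axis) of the 3 loci of the KNOX list in the 5 tissues (horizontal axis), with bars for the mean, error bars for the SD and points for the 3 libraries. Locus 1 is near 0 in root and leaf and at 32.7 to 33.4 CPM in shoot tip, locus 2 is higher in shoot tip than in root, and locus 3 is at 49.1 to 52.7 CPM in root and 5.55 to 5.86 CPM in shoot tip.

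Lignin precursor (monolignol) synthesis turns phenylalanine into the alcohols from which lignin is polymerised. Its 22 loci summed to 6104, 6107 and 6193 CPM in the roots and 4579, 3978 and 4435 CPM in the shoot tips, without overlap. The sum was not highest in root among the 5 tissues. For the same loci it was 7224 ± 641.9 CPM in leaf, 2153 ± 88.8 CPM in phloem and 32573 ± 2155 CPM in xylem (SD, n = 3). By the edgeR call 12 were higher in root, 2 were higher in shoot tip and 8 were not called, where 26.5% and 25.5% of all loci were called, with a median log2 fold of 1.01 beside 0.03 over all loci. Of the 12, 3 had log2 folds from 1.0 to 1.03, and each of these lost its call under upper quartile scaling and with the 6 libraries fitted alone. Leaving out any single library ended the call of at least 1 of these 3.

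The steps of the pathway did not move alike, as read from the same recalled nomenclature. Both loci of coniferaldehyde 5-hydroxylase, which leads to syringyl lignin, were higher in root, at log2 folds of 3.80 ± 0.21 and 2.28 ± 0.20 (SE). The former had 126.8, 125.0 and 113.8 CPM in root and 7.63, 8.48 and 10.2 CPM in shoot tip. The latter had 280.6, 283.8 and 365.6 CPM in root and 77.5, 56.3 and 57.9 CPM in shoot tip, and in both the organs did not overlap.

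Both loci of cinnamate 4-hydroxylase, the first oxidation step, were higher in root as well, at log2 folds of 1.88 and 1.0, the latter among those that lost the call. Their sum was 1156 ± 87.5 CPM in root (SD, n = 3) and 407.9 ± 149.8 CPM in shoot tip. Phenylalanine ammonia-lyase, the entry to the pathway, did not move as one. Of its 5 loci 3 were higher in root, by log2 folds of 1.03 to 2.01, while 1 was higher in shoot tip, at -1.72 ± 0.40. That locus had 458.1, 475.0 and 652.9 CPM in root and 1870, 1632 and 1736 CPM in shoot tip, and was higher still in leaf, at 4107 ± 1061 CPM. The sum over the 5 loci, 2319 ± 147.2 CPM in root and 2525 ± 193.7 CPM in shoot tip, overlapped between the organs.

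For caffeoyl-CoA O-methyltransferase, which methylates lignin precursors, 1 of 3 loci was higher in shoot tip, at a log2 fold of -1.13 ± 0.32 (SE), and 2 were not called. The former was not called without shoot tip replicate 2 (-0.93) or on unscaled library totals (-0.77). The sum over its 3 loci was 147.2 CPM in shoot tip replicate 1, against 335.5 and 353.7 CPM in the other shoot tips and 330.5 to 353.5 CPM in the roots. Neither of the 2 caffeoyl shikimate esterase loci was called, at log2 folds of 0.23 and -0.50.

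**Figure D5:**
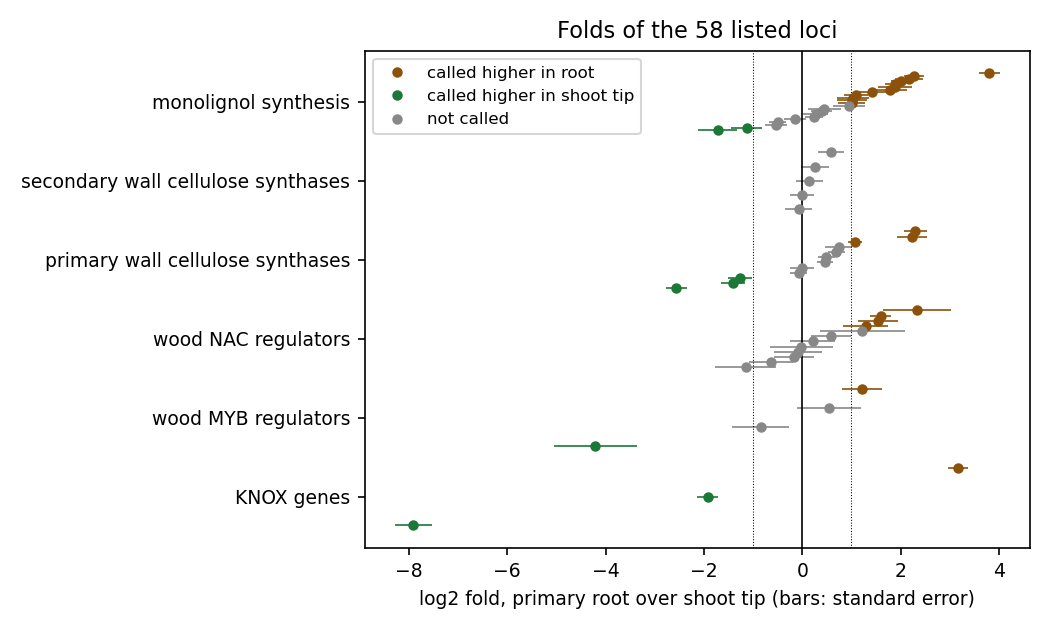
Each point is 1 of the 58 listed loci, placed by its log2 fold of root over shoot tip (horizontal axis) within its list (vertical axis), with bars for the standard error and colour for the call; dotted lines mark log2 folds of -1 and 1. Monolignol loci lie mostly to the right (12 called higher in root, 2 in shoot tip), secondary wall cellulose synthases near 0, and primary wall cellulose synthases on both sides.

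Cellulose synthases of the primary wall, made in all growing cells, were called about as often as other loci. Of 12 loci, 3 were higher in root, 3 were higher in shoot tip and 6 were not called by edgeR, near the 26.5% and 25.5% of all loci, at a median log2 fold of 0.48. On unscaled library totals 5 were higher in root and 2 in shoot tip. Sums were 1437, 1538 and 2060 CPM in root and 1374, 1324 and 1420 CPM in shoot tip, root replicate 3 being the highest. The largest folds towards root were those of 2 CesA6 type loci. The first had 95.8, 101.4 and 144.9 CPM in root and 28.0, 19.4 and 22.2 CPM in shoot tip, at a log2 fold of 2.29 ± 0.23 (SE). The second had 178.9, 179.1 and 289.7 CPM in root and 52.7, 41.1 and 43.5 CPM in shoot tip, at 2.24 ± 0.31. For both, root was the highest of the 5 tissues, the next being leaf with 35.1 ± 6.61 CPM for the first (SD, n = 3) and phloem with 82.0 ± 35.4 CPM for the second.

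A locus of the CesA1 and CesA3 types had the largest fold towards shoot tip, with 13.2, 17.5 and 22.7 CPM in root and 96.3, 114.4 and 106.7 CPM in shoot tip (log2 fold -2.56 ± 0.22, edgeR adjusted p = 2.3e-07). The others higher in shoot tip had log2 folds of -1.26 and -1.40, the former not called on unscaled library totals (-0.93). The remaining locus higher in root, at 1.07 ± 0.14, was not called without root replicate 3, where its log2 fold was 0.95.

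The 5 cellulose synthases of the secondary wall serve here as markers of forming xylem, which both organs can hold. None was called by edgeR, DESeq2 or limma voom, and 1 had an unadjusted p below 0.05 by edgeR, at 0.048. The log2 folds lay between -0.07 and 0.59 with standard errors up to 0.29. Their sum was 130.0, 149.4 and 161.1 CPM in root and 85.9, 135.5 and 153.4 CPM in shoot tip, where replicate 1 was again the lowest. Leaf was near these levels, at 123.8 ± 30.0 CPM (SD, n = 3), phloem held 268.6 ± 38.85 CPM and xylem 9038 ± 1650 CPM. The part of forming xylem in the lignin and NAC results was not tested.

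NAC regulators of wood formation were scarce in both organs, their 12 loci summing to 30.8 ± 1.51 CPM in root (SD, n = 3) and 17.5 ± 5.97 CPM in shoot tip, against 469.1 ± 44.6 CPM in xylem. By edgeR 4 were higher in root, near the 26.5% of all loci, and none in shoot tip, where 25.5% of all loci were called; DESeq2 and limma voom called none higher in shoot tip either. The same 4 had the only unadjusted p-values below 0.05 by edgeR, at a list median log2 fold of 0.39. Of the 4 called, 2 were of the SND1 and NST type, known as switches of fiber walls, at log2 folds of 1.54 ± 0.41 and 1.29 ± 0.45. The other 2 were of the VND type, known as switches of vessel formation, at 1.60 ± 0.21 and 2.33 ± 0.69. The locus at 2.33 rested on 67 counts over the roots and 16 over the shoot tips. It averaged 2.14 CPM in root, 0.867 CPM in leaf and only 0.270 CPM in xylem, whereas the rest of those called were highest in xylem. The locus at 1.29 was not called without root replicate 1 or 2 or shoot tip replicate 1. In shoot tip replicate 1 the list summed to 10.8 CPM, against 19.6 and 22.2 CPM in the others. All of these lay below the 29.1 to 32.1 CPM of the roots.

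The 4 MYB regulators were near the limit of detection, at sums of 2.76 ± 0.233 CPM in root and 2.54 ± 1.46 CPM in shoot tip (SD, n = 3). Of these 1 was called higher in root, at a log2 fold of 1.21 ± 0.40, but not without shoot tip replicate 1 or 2. Another was called higher in shoot tip with 30 counts over the shoot tips and 1 over the roots. This is a ratio of 23.0 with a 95% interval of 3.82 to 938.5 by the exact binomial method, for counting error only. With the 6 libraries fitted alone it did not pass the low-count filter.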

How the data were processed

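Total RNA was sequenced in 24 libraries of 8 groups with 3 replicates each. What the authors deposited is a single table of raw, unnormalized counts per locus. The submitters' processing notes name TopHat without a version. Which tool counted the reads, on which build and annotation and with which strand setting, the sources used here do not say. All columns matched a sample title (0 left over). Identifiers matched 0 entries of the reference table (assembly P.trichocarpa_v4.1), so 32 lists by product name could not be applied.

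Tests on the deposited counts used edgeR 4.0.16 (R 4.3.3), with DESeq2 1.42.0 and limma 3.58.1 as alternatives; figures used matplotlib 3.10.9 under Python 3.11.15. The 15 tissue libraries were fitted together (filterByExpr, TMM, quasi-likelihood test; 31308 loci, biological coefficient of variation 27.5%), leaving out the 9 captures, whose RNA was amplified. P-values were adjusted over all loci. Each standard error is the size of the log2 fold over the root of its F statistic. The tests were also run on simulated counts with a common spread, few changed loci and no outlying library. That setting differs from these data, so no conclusion is drawn from it. Replicates differed by more than sampling noise (chi-square per degree of freedom 10.1 in root, 27.8 in shoot tip). Without names, the rule for named loci gave the 2 largest folds each way among called loci of at least 50 CPM without overlap. Lists and members were chosen with earlier results of these data known, and subgroups of the lists, near-equal counts and stretches were examined after the table had been seen.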

Additional observations from a re-analysis of the deposited data

How the results depend on the processing

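Loci called numbered 16275, between 15427 and 17309 under other normalizations, filters, tests and samples, and no call took the opposite direction under any of them. Unscaled library totals and the removal of loci with near-equal counts were added after seeing the data. Unscaled totals moved the share of calls higher in root from 50.9% to 61.5%; with them 1 monolignol locus was higher in shoot tip and 5 primary wall cellulose synthases higher in root. The MYB locus higher in shoot tip was filtered out, leaving 0 such loci, with the 6 libraries alone or under a filter of 1 CPM in 3 of the 6 libraries. In leaving out single replicates, the MYB loci higher in root ranged from 0 to 1, and the monolignol loci higher in shoot tip from 1 to 2. Over 33 listed or printed loci, 494 values under the alternatives kept their call, 30 lost it, at 8 loci, and none changed sign; 4 further values, at 3 loci, are missing because the locus was not tested under that setting (the MYB locus above and the 2 printed shoot tip loci of near-equal counts). Same-numbered root and shoot tip libraries deviated together by correlations of 0.00, 0.02 and 0.06, so numbers were not taken as pairs; the fit with a replicate block called 8430 loci higher in root and 8011 in shoot tip. Root libraries, down to 5689642 counts, limit what can be called absent from root.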
